A study of Mus musculus with 2 samples.

Results

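The gene set described here holds 10 genes of the Notch pathway, out of 14714 genes in the deposited table. They are the ligands Dll4 and Jag1, the receptors Notch1, Notch3 and Notch4, the DNA-binding partner Rbpj, and the transcriptional targets Hes1, Hey1, Hey2 and Heyl. They were chosen by name, all 10 were found in the table, and their UMIs (counted RNA molecules) were summed within each deposited cell class, each cluster number and each library. The genes come from single-cell RNA sequencing of enzymatically digested mouse aortas, with 1 library per genotype. The DKO library is from EC-iDKO/Apoe−/− mice, a name read here as loss of Apoe with an inducible double knockout aimed at endothelial cells. The ApoE library is from Apoe−/− mice that carry the same Apoe loss without the double knockout. Both groups ate a western diet for 12 weeks. From knowledge of the line, the knocked-out genes are the epsins Epn1 and Epn2, while the labels name neither gene nor the Cre driver. The labels also do not say whether either gene is lost outside endothelium. Smooth muscle of the DKO library therefore cannot be taken as genetically unaltered. The sources used here give neither the age of the animals nor how many were pooled per library. CD31 microbeads, which bind endothelial cells, appear in the protocol although the cell type label reads all cells, so a share of endothelial cells here is not a share of the aorta.

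Notch receptors are single-pass membrane proteins that bind ligands of the Delta-like and Jagged families on a neighbouring cell. Endocytosis of the bound ligand in the sending cell, which the ubiquitin ligase Mib1 and the epsins serve, pulls on the receptor and exposes it to cleavage. The freed intracellular part enters the nucleus, joins RBPJ and switches on genes such as those of the Hes and Hey repressors. In arteries, Dll4, Jag1, Notch1 and Notch4 are known from endothelium, while Notch3, Heyl and Hey2 are known from smooth muscle cells and pericytes.

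The DKO library held 5489 cells and 6853185 UMIs, with a median of 769 UMIs per cell. The ApoE library held 2428 cells and 13304762 UMIs, with a median of 3769.5. At least 1000 UMIs were reached by 34.0% of DKO cells and 94.6% of ApoE cells, and 5 barcodes occurred in both libraries. The 10 Notch genes took 2881 UMIs in DKO and 5484 in ApoE, which is 420 and 412 counts per 1000000 UMIs (CPM). Levels below are CPM of the summed UMIs of a population, and sums of 3′ tags do not scale with transcript length. Intervals are exact, at the 95% level, and cover counting error only. With 1 library per genotype there was no replicate and no test, so higher and lower describe this pair of libraries. A ratio was called when it was at least 1.5-fold in either direction, its interval left out 1, and both libraries together held at least 20 UMIs. In sums over a population, fewer cells of a type and less RNA per cell cannot be told apart.

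Endothelial identity was checked first against marker genes. Cluster 9 held 310 DKO and 98 ApoE cells, with Pecam1 at 2169 CPM in DKO and 1206 CPM in ApoE, and Cdh5 at 167 CPM in DKO and 184 CPM in ApoE. Its endothelial list of 10 genes summed to 4131 CPM in DKO (10 genes seen) and 2405 CPM in ApoE (9 genes seen). The smooth muscle list of 8 genes summed to 28439 CPM in DKO and 29212 CPM in ApoE in the same cluster. Macrophage genes summed to 14.8 CPM in DKO (2 of 7 seen) and 1868 CPM in ApoE (6 of 7 seen), fibroblast genes to 434 CPM in DKO and 3439 CPM in ApoE, and erythroid genes to 653 CPM in DKO and 0 CPM in ApoE. The part of these lists in the Notch gene levels of cluster 9 was not tested. Cluster 19 held 67 DKO cells and 9 ApoE cells. There, the arterial list of 8 genes summed to 2860 CPM in DKO, with all 8 genes seen, and to 285 CPM in ApoE, with 3 genes seen. The endothelial list summed to 5149 CPM in DKO and 2624 CPM in ApoE, and the macrophage list to 0 CPM in DKO and 2434 CPM (77 UMIs) in the 9 ApoE cells. Sema3g had 91 UMIs in the DKO cells and none in the 9 ApoE cells. The part of these marker differences in the cluster 19 values of Dll4, Jag1 and Notch1 was not tested. The EC class of the authors joins clusters 9, 19 and 20 in large part, with 380 DKO and 131 ApoE cells.

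**Figure D1:**
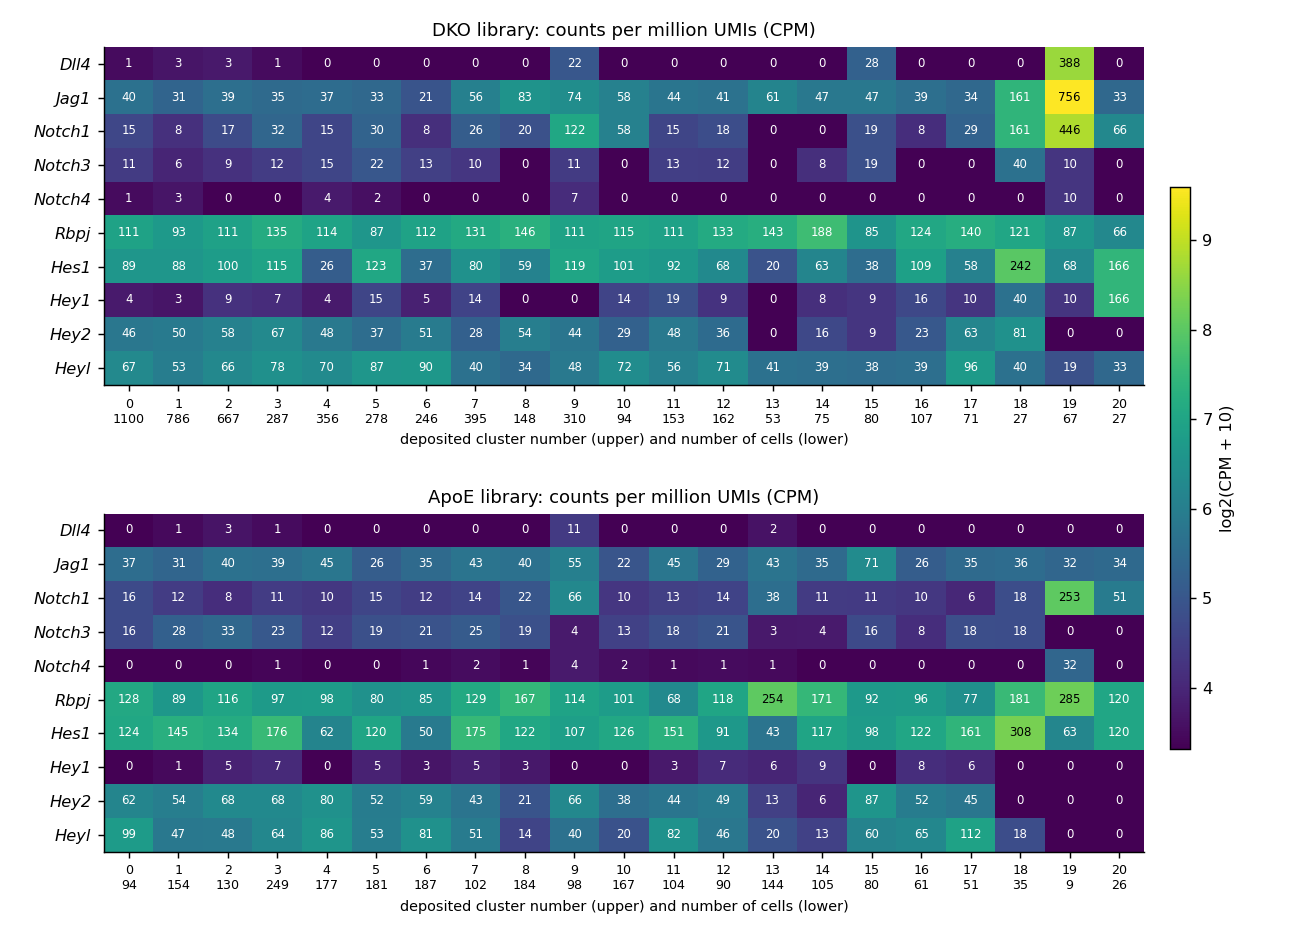
Level of each Notch gene in each deposited cluster, in CPM (the number in a cell of the plot) and as log2(CPM + 10) (colour), in the DKO library (upper panel) and the ApoE library (lower panel). The brightest cells are Jag1, Notch1 and Dll4 in cluster 19 of the DKO library, at 756, 446 and 388 CPM; clusters 18, 19 and 20 had fewer than 50 cells in at least 1 library.

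Dll4, a Delta-like ligand of arterial and sprouting endothelium, was concentrated in cluster 19 of the DKO library. The DKO library held 55 UMIs of Dll4 and the ApoE library 9. Of the 55 DKO UMIs, 40 lay in the 67 cells of cluster 19, which is 72.7% of them in 1.22% of the cells. The level there was 388 CPM in DKO, against 0 UMIs in the 9 ApoE cells, so it was at least 4.09-fold higher than the floor of 3 UMIs over those cells. In cluster 9, Dll4 had 6 UMIs (22.2 CPM) in DKO and 3 UMIs (11.0 CPM) in ApoE. These came from 2 DKO cells and 1 ApoE cell, and 5 of the 6 DKO UMIs were in 1 cell. Cluster 9 therefore held too few Dll4 molecules for a comparison. Cluster 15 held 3 DKO UMIs and no ApoE UMI. In smooth muscle (the SMC class without cluster 15), 6 DKO and 4 ApoE UMIs were counted over 4348 and 1516 cells. No Dll4 UMI was seen in either library in 11 of the 18 clusters with at least 50 cells in both.

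Jag1, the Jagged ligand found on endothelium and smooth muscle, was spread more widely and peaked in the same cells. In cluster 19 it had 78 UMIs (756 CPM) in DKO and 1 UMI (31.6 CPM) in ApoE. In cluster 9 it had 20 UMIs (74.2 CPM) in DKO and 15 UMIs (55.2 CPM) in ApoE, a ratio of 1.34 with an interval of 0.654 to 2.82. In smooth muscle it had 197 UMIs (35.9 CPM) in DKO and 299 UMIs (34.9 CPM) in ApoE, a ratio of 1.03 with an interval of 0.855 to 1.24. Smooth muscle levels of Jag1 thus lay side by side in both libraries. Smooth muscle supplied 197 of the 355 Jag1 UMIs of DKO and 299 of the 490 of ApoE. The whole SMC class held 81.4% of the UMIs of all genes in DKO and 64.8% in ApoE. Among clusters of at least 50 cells, Jag1 ran from 20.9 to 756 CPM in DKO and from 21.6 to 70.7 CPM in ApoE. Cluster 19 stood apart at the top of the DKO order, and intervals of all other neighbours overlapped in both libraries.

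Notch1, the receptor for both ligands in arterial endothelium, had the same top cluster in DKO. It reached 446 CPM (46 UMIs) in DKO and 253 CPM (8 UMIs) in ApoE in cluster 19. In cluster 9 it reached 122 CPM (33 UMIs) in DKO and 66.2 CPM (18 UMIs) in ApoE. In smooth muscle it was at 17.9 CPM (98 UMIs) in DKO and 11.9 CPM (102 UMIs) in ApoE. Endothelial levels were above smooth muscle levels in both libraries. Macrophage cluster 13, where the C1q genes are high, held 33 Notch1 UMIs (38.2 CPM) in 144 ApoE cells and 0 UMIs in 53 DKO cells. The 53 DKO cells are shallow, with 61.5 CPM as the level that 3 UMIs would give, so the receptor was not detectable there at this depth. Marker lists of cluster 13 differed as well. The smooth muscle list summed to 34434 CPM in DKO and 12014 CPM in ApoE. The macrophage list summed to 3564 CPM in DKO and 11493 CPM in ApoE, and the part of this in the Notch1 values was not tested.

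Within the DKO library, cluster 19 exceeded cluster 9 by 17.4-fold for Dll4 (interval 7.34 to 50.3), 10.2-fold for Jag1 (6.18 to 17.6) and 3.65-fold for Notch1 (2.28 to 5.88). Clusters were formed from all genes, so these ratios describe the cluster and carry no test. At the level of single cells, 39 of the 67 DKO cells (58.2%, Clopper-Pearson interval 45.5 to 70.2%) had a Jag1 UMI. Notch1 was seen in 30 cells (44.8%, 32.6 to 57.4%) and Dll4 in 26 (38.8%, 27.1 to 51.5%). Of the 26 cells with Dll4, 17 also had Jag1 and 14 also had Notch1, and 11 had all 3 genes. Ligand and receptor UMIs thus shared barcodes, and 55 of the 67 cells had at least 1 of the 3. With Jag1 in 39 and Notch1 in 30 of all 67 cells, such overlap would occur without any association, which was not tested. In cluster 9, by contrast, 20 of 310 DKO cells had Jag1 (6.45%) and 23 had Notch1 (7.42%), at a median of 707.5 UMIs per cell, against 1280 in cluster 19. Among the 98 ApoE cells of cluster 9, at a median of 2132.5 UMIs, 13 had Jag1 and 17 had Notch1. Median depth differed between these groups and its part in the shares was not tested.

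The target genes had few UMIs in cluster 19, and none had its highest DKO level there. Hey2 had 0 UMIs in its 67 DKO cells, where 3 UMIs would be 29.1 CPM, and 0 UMIs in its 9 ApoE cells. Heyl had 2 UMIs (19.4 CPM) in DKO and 0 in ApoE. Hey1 had 1 UMI in DKO and 0 in ApoE. Hes1 had 7 UMIs (67.9 CPM) in DKO and 2 UMIs (63.2 CPM) in ApoE. Rbpj had 9 UMIs in each library, at 87.3 CPM in DKO and 285 CPM in ApoE, and 6 of the 9 ApoE UMIs came from 1 cell. The cluster with the highest ligand levels in DKO thus did not give the highest CPM of any target gene. Among clusters of at least 50 cells, only its Hey2 interval (0 to 35.8 CPM) lay below that of the highest cluster (48.9 to 89.1 CPM). Its intervals for Hes1 (27.3 to 140 CPM), Hey1 (0.245 to 54.0 CPM) and Heyl (2.35 to 70.1 CPM) overlapped those of the highest clusters. For these genes the order was not resolved.

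**Figure D2:**
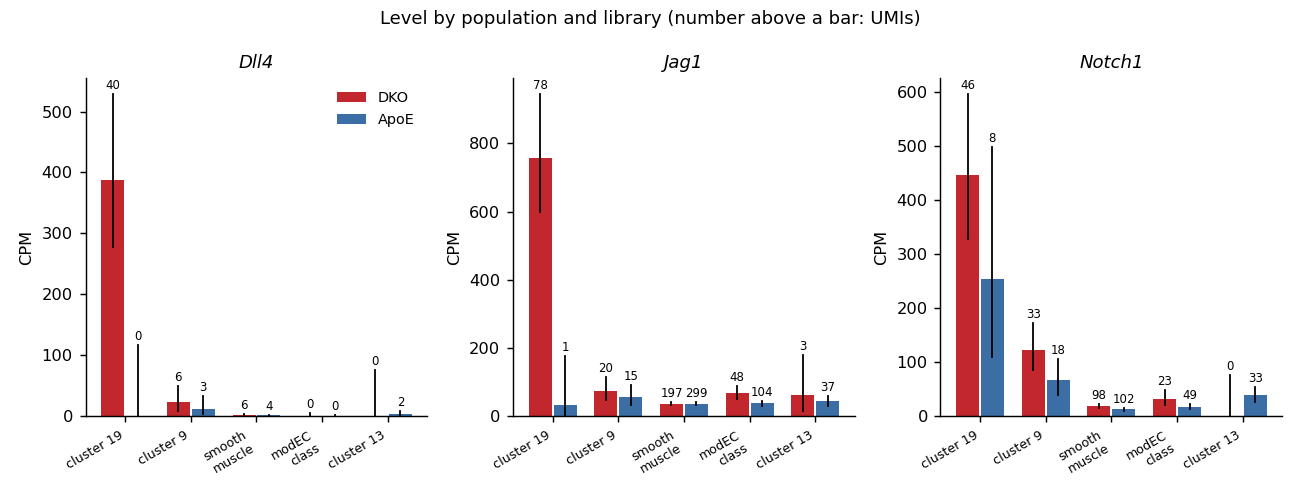
Levels of Dll4, Jag1 and Notch1 in CPM in endothelial clusters 19 and 9, smooth muscle, the modEC class and macrophage cluster 13, for DKO (left bar of each pair) and ApoE (right bar). Black lines are exact 95% Poisson intervals, the numbers are UMIs, and cluster 19 of ApoE rests on 9 cells; the DKO bars of cluster 19 are the tallest in each panel.

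Promoter sequences are shown for these 3 genes because they were high together in cluster 19, and for Hey2 and Rbpj because they hold matches to the core of the RBPJ binding sequence. The sequences are from the RefSeq promoter table (GRCm38.p6), run from 250 bases before to 10 bases after the start that the table gives, and are written 5′ to 3′ on the strand of the gene. For Notch1 and Rbpj that start lies far inside the gene span annotated in GENCODE, so it is not the outermost annotated start. Capitals mark TGGGAA or its reverse complement TTCCCA. Of the 10 genes, 7 matched the table by symbol; the others are Hes1, Hey1 and Heyl.
Dll4, chr2:119325534-119325793, plus strand: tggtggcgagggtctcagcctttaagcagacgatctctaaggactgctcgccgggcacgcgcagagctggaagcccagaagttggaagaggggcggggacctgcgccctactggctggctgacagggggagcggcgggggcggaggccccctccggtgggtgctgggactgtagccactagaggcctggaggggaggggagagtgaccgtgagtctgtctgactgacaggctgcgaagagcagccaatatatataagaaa
Jag1, chr2:137116511-137116770, minus strand: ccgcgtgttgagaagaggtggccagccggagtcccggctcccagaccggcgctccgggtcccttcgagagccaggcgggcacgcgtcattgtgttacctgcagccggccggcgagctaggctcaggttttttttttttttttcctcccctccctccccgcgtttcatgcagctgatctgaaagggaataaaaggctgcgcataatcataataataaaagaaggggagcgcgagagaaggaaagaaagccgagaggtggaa
Notch1, chr2:26503813-26504072, minus strand: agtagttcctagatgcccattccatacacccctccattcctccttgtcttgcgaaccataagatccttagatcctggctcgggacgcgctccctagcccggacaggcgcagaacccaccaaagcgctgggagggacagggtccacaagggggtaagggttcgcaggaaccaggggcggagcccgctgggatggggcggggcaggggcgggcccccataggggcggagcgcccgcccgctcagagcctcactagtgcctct
Hey2, chr10:30842774-30843033, minus strand: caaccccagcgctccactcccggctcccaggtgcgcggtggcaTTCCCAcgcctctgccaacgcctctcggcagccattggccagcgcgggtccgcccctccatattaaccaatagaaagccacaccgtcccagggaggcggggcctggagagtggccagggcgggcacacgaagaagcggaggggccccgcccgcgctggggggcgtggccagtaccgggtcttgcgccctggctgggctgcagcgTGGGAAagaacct
Rbpj, chr5:53590096-53590355, plus strand: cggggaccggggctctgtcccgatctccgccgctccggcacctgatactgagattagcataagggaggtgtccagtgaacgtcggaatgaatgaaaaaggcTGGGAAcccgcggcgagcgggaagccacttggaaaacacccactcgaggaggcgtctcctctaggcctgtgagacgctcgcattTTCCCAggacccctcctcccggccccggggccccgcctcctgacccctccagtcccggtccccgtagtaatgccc
Hey2 held 2 matches, starting 207 and 3 bases before the start. The first of the listed Rbpj windows held 2, starting 149 and 65 bases before it, and the window of another Rbpj start, which overlaps the first, held 1, the same site as the one nearer the first start. The windows of Dll4, Jag1, Notch1, Notch3 and Notch4 held none of these letters. Of 32851 promoter windows of 300 bases in the table, 25.6% held at least 1 match on either strand, so a match is common and is a description of sequence only.

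In the EC class as a whole, Notch1, Jag1 and Dll4 were called higher in DKO, 3 of the 10 members, and none was called lower. Notch3, Notch4 and Hey1 had fewer than 20 UMIs there and could not be called. Of 5350 genes with at least 20 UMIs in that class, 10.6% were called higher and 10.7% lower. Dll4 stood at 120 CPM in DKO and 8.38 CPM in ApoE (ratio 14.3, interval 4.59 to 71.8). Jag1 stood at 250 CPM in DKO and 50.3 CPM in ApoE (ratio 4.97, 2.98 to 8.74). Notch1 stood at 208 CPM in DKO and 78.2 CPM in ApoE (ratio 2.66, 1.71 to 4.25). These ratios rested in large part on cluster 19, which held 67 DKO cells and 9 ApoE cells. Without cluster 19, the ratio was 1.23 for Jag1 (0.598 to 2.54), 2.32 for Dll4 (0.496 to 14.3) and 1.97 for Notch1 (1.10 to 3.62). Only Notch1 was still called among these 3 genes when cluster 19 was left out. Dll4 then had 6 UMIs in DKO and 3 in ApoE, below the 20 UMIs that a call needs, so it could not be compared.

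In cluster 9 alone, 6 of the 10 members had at least 20 UMIs. Notch1 was called higher in DKO (ratio 1.85, 1.01 to 3.49) and none was called lower, beside 7.1% of 4226 genes higher and 8.97% lower. The Notch1 call was lost in cells thinned to 1000 UMIs (ratio 2.81, 0.965 to 9.10), which leaves fewer UMIs and a wider interval. The median log2 ratio was 0.20 over these 6 members and -0.0012 over the 4226 genes, with 0 UMIs set to the floor of 3. Hes1 had 32 UMIs (119 CPM) in DKO and 29 UMIs (107 CPM) in ApoE, a ratio of 1.11 with an interval of 0.652 to 1.91. Hey2 had 12 UMIs (44.5 CPM) in DKO and 18 UMIs (66.2 CPM) in ApoE, and Heyl 13 UMIs (48.2 CPM) in DKO and 11 UMIs (40.5 CPM) in ApoE. Hey1 had no UMI in either library. Notch4, the endothelial receptor, had 2 UMIs in DKO and 1 in ApoE and was at the limit of detection. Rbpj had 30 UMIs (111 CPM) in DKO and 31 UMIs (114 CPM) in ApoE (ratio 0.976, 0.570 to 1.67). The intervals of Hes1 and Rbpj held a 1.5-fold difference in both directions, so one of that size was not detectable at this depth.

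**Figure D3:**
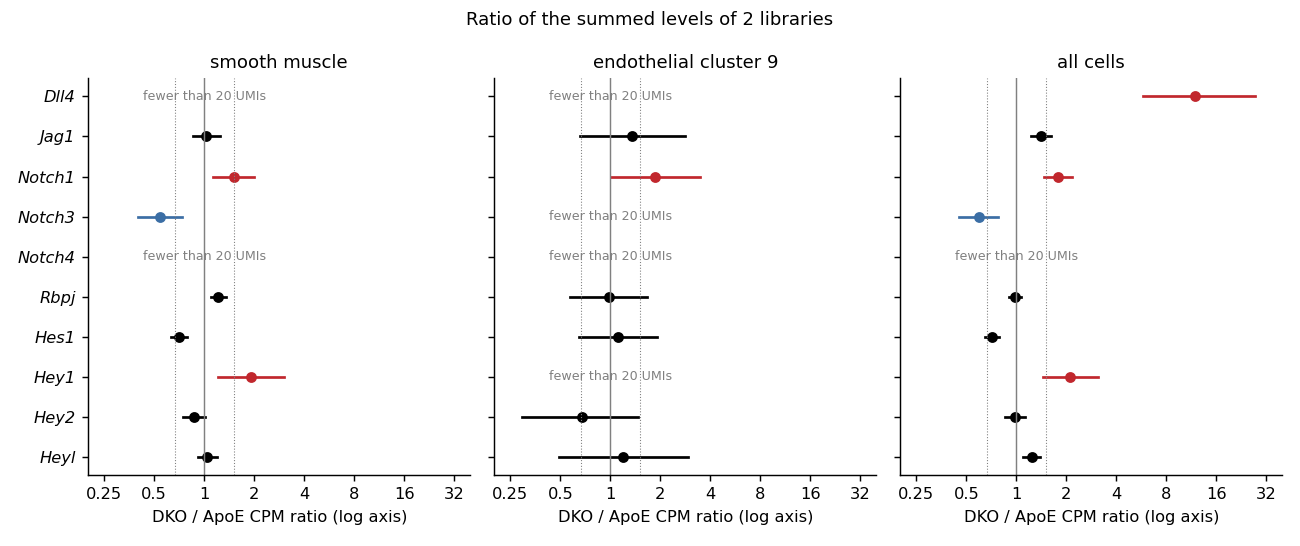
Ratio of DKO to ApoE CPM (log axis) for each Notch gene in smooth muscle, endothelial cluster 9 and all cells. Points are ratios and lines exact 95% intervals for counting error; red marks genes called higher in DKO, blue genes called lower, and dotted lines the 1.5-fold limits. Dll4 over all cells, at 11.9, is the ratio farthest from 1.

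Smooth muscle held most of the Notch UMIs, and the whole SMC class held most UMIs of all genes (81.4% in DKO and 64.8% in ApoE). Within smooth muscle the members split. Notch3, the receptor of mural cells, was at 11.1 CPM (61 UMIs) in DKO and 20.4 CPM (175 UMIs) in ApoE, 1.84-fold lower in DKO (ratio 0.544, interval 0.400 to 0.733); in cells thinned to 1000 UMIs the ratio was 0.544 and its interval, 0.288 to 1.00, reached 1. Notch1 was called higher (ratio 1.50, 1.13 to 2.00), at the limit of the rule, and was not called with TMM scaling (1.48, 1.11 to 1.98) or after thinning (1.67, 0.877 to 3.27). Notch4 had 5 UMIs in DKO and 4 in ApoE. The summed ratios of Notch1 and Notch3 thus lay on opposite sides of 1 in this population, and neither was called after thinning. Thinning leaves fewer UMIs and so wider intervals, and a call lost there does not show a smaller ratio.

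Hes1, a repressor that many signals besides Notch induce, was at 86.3 CPM (473 UMIs) in DKO and 122 CPM (1049 UMIs) in ApoE. Its ratio was 0.704 with an interval of 0.630 to 0.786, so the interval left out 1 while the size was short of 1.5-fold. Hey1 was at 8.21 CPM (45 UMIs) in DKO and 4.32 CPM (37 UMIs) in ApoE, a ratio of 1.90 (1.20 to 3.02), and was called higher. The call was lost in cells with 1000 to 3000 UMIs (ratio 1.83, 0.589 to 7.51) and in cells thinned to 1000 UMIs (2.61, 0.907 to 8.98). Macrophage cluster 13 of ApoE had Hey1 at 5.78 CPM (5 UMIs), with an interval of 1.88 to 13.5 CPM that held the smooth muscle levels of both libraries. Hey2 was at 49.8 CPM (273 UMIs) in DKO and 57.1 CPM (489 UMIs) in ApoE, a ratio of 0.872 (0.749 to 1.01). Heyl was at 70.8 CPM (388 UMIs) in DKO and 68.0 CPM (582 UMIs) in ApoE, a ratio of 1.04 (0.913 to 1.19). The 4 target genes thus gave 1 ratio above the rule, 1 lower value within it and a pair close to 1. Rbpj, which binds DNA for all Notch receptors, was at 112 CPM (615 UMIs) in DKO and 92.1 CPM (789 UMIs) in ApoE, a ratio of 1.22 (1.09 to 1.35).

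Of the 8 members with at least 20 UMIs in smooth muscle, 2 were called higher and 1 lower. Over 11941 genes, 9.87% were called higher and 7.67% lower, and the median log2 ratio was 0.05 over the members and 0.03 over all genes. In the same cells, a list of 10 immediate early and heat shock genes, chosen after the data were seen, summed to 8941 CPM in DKO and 13754 CPM in ApoE. Its members did not move together. The heat shock genes Hspa1a (455 CPM in DKO and 1709 CPM in ApoE) and Hspa1b (266 CPM in DKO and 1535 CPM in ApoE) were lower in DKO, Fos was at 2930 CPM in DKO and 3261 CPM in ApoE, and Junb (835 CPM in DKO and 276 CPM in ApoE) and Ier2 (483 CPM in DKO and 121 CPM in ApoE) were higher. The pericyte list summed to 2036 CPM in DKO and 2898 CPM in ApoE, a gap that lay mostly in Rgs5 (1276 CPM in DKO and 2157 CPM in ApoE), while Kcnj8, Abcc9 and Pdgfrb were higher in DKO. The endothelial list summed to 89.5 CPM in DKO and 72.5 CPM in ApoE, and the macrophage list to 10.8 CPM in DKO and 58.3 CPM in ApoE. The part of these in the values of the Notch genes was not tested.

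The smooth muscle differences were looked at in each of 11 smooth muscle clusters with at least 50 cells in both libraries. Hes1 was lower in DKO in 10 of the 11, and 14.4% of 2177 genes with a similar number of UMIs (0.5 to 2 times) were lower in at least as many. Over all 18 clusters it was lower in 16, with the lowest ratio, 0.360, in cluster 17 (57.9 CPM in DKO and 161 CPM in ApoE). The share of similar genes was not computed for that count. Hes1 ran from 20.5 to 123 CPM over the DKO clusters and from 42.8 to 176 CPM over the ApoE clusters. Smooth muscle clusters 4 and 6 were low in both libraries, at 25.7 and 37.0 CPM in DKO and at 61.5 and 50.2 CPM in ApoE. Cluster 3, high in both, was at 115 CPM in DKO and 176 CPM in ApoE. Over the 18 clusters, which share libraries and depths, the Hes1 levels of both libraries had a Pearson r of 0.77 on the log2(CPM + 10) scale and a Spearman rho of 0.474, and rho was 0.40 over the 11 smooth muscle clusters. Clusters 7 and 17 were both near the top of the ApoE order. Cluster 7, at 80.3 CPM in DKO and 175 CPM in ApoE, was in the middle of the DKO order and cluster 17 in its lower part. Clusters 5 and 9 changed rank the other way, while their levels hardly differed between libraries. The ratio was 1.03 (0.753 to 1.38) in cluster 5 and 1.11 (0.652 to 1.91) in cluster 9. Both clusters were in the lower part of the ApoE order, at 120 and 107 CPM, and at the top of the DKO order, at 123 and 119 CPM. Intervals of all neighbours overlapped in both orders.

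Notch3 was lower in DKO in 9 of the 11 smooth muscle clusters, beside 11.1% of 4398 genes with a similar number of UMIs. Clusters 1 and 2 differed most among those with more than 10 UMIs. Cluster 1 had 4 UMIs (5.56 CPM) in DKO and 24 UMIs (27.7 CPM) in ApoE, and cluster 2 had 5 UMIs (8.52 CPM) in DKO and 13 UMIs (32.8 CPM) in ApoE. Hey1 was higher in DKO in all 11, beside 0.981% of 3159 genes with a similar number of UMIs. Its levels there ran from 2.78 to 18.8 CPM in DKO and from 0 to 7.77 CPM in ApoE, and no cluster held more than 10 UMIs in a library. Rbpj was higher in DKO in 9 of the 11, by at most 1.81-fold in cluster 17 (140 CPM in DKO and 77.3 CPM in ApoE). Hey2 was lower in DKO in 9 of the 11 and Heyl in 5. Notch1 was higher in DKO in 7 of the 11 and lower in 4. For Rbpj, Hey2, Heyl and Notch1 the share of similar genes with such counts was not computed, so their counts are a description only.

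**Figure D4:**
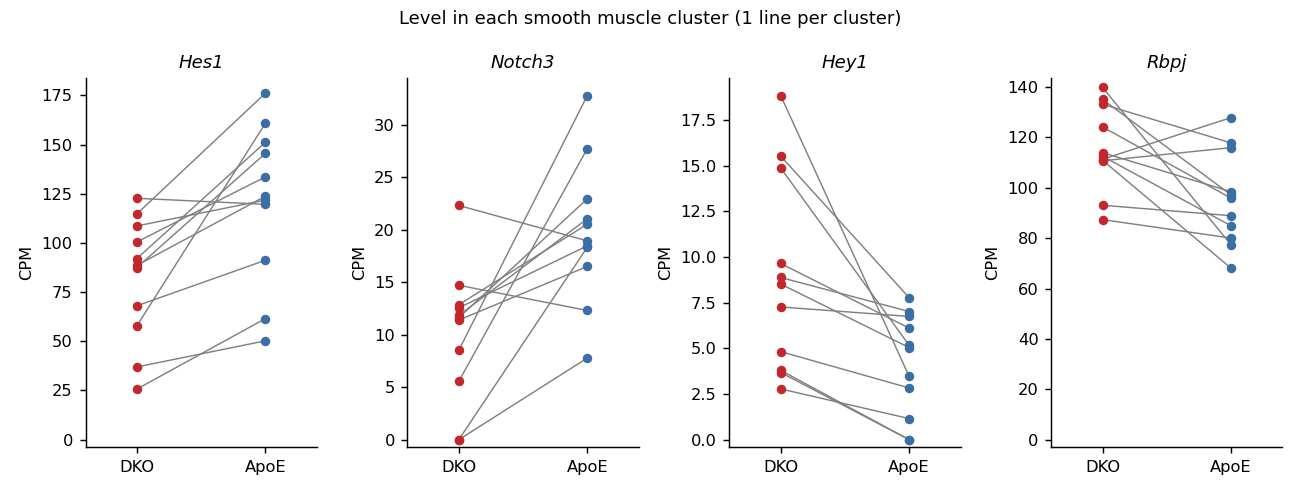
Level of Hes1, Notch3, Hey1 and Rbpj in CPM in each of 11 smooth muscle clusters, with DKO on the left and ApoE on the right and a line joining the values of 1 cluster. Most lines run upward from DKO to ApoE for Hes1 and Notch3, all run downward for Hey1, and 9 of 11 run downward for Rbpj. The share of similar genes was not computed for the Rbpj count.

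Outside smooth muscle and endothelium, Rbpj was highest in macrophage cluster 13 among ApoE clusters of at least 50 cells, at 254 CPM (220 UMIs). It stood apart from the next, cluster 14 at 171 CPM, and intervals overlapped in the other 16 of 17 neighbouring pairs of that order. In DKO, cluster 13 gave 143 CPM from 7 UMIs. Cluster 8, in the class that the authors named modEC, had Jag1 at 83.0 CPM (17 UMIs) in DKO and 40.3 CPM (62 UMIs) in ApoE, and Hey2 at 53.7 CPM (11 UMIs) in DKO and 20.8 CPM (32 UMIs) in ApoE. Hes1 in cluster 8 was at 58.6 CPM (12 UMIs) in DKO and 122 CPM (188 UMIs) in ApoE. Within cluster 8 the fibroblast list summed to 6094 CPM in DKO and 23034 CPM in ApoE, the cartilage-like list to 92.8 CPM in DKO and 6254 CPM in ApoE, and the smooth muscle list to 17672 CPM in DKO and 12112 CPM in ApoE. The part of these in the Jag1, Hey2 and Hes1 values was not tested. The macrophage list summed to 3564 CPM in DKO and 11493 CPM in ApoE within cluster 13. The smooth muscle list there summed to 34434 CPM in DKO and 12014 CPM in ApoE, above the macrophage list in both libraries. The part of these lists in the Rbpj values of cluster 13 was not tested. In cluster 15, Hey2 had 1 UMI in DKO and 16 UMIs in ApoE, over 80 cells in each. The marker genes of that cluster differed as well: the adipocyte list summed to 56472 CPM in DKO and 353 CPM in ApoE, the smooth muscle list to 21910 CPM in DKO and 33551 CPM in ApoE, and the macrophage list to 9.41 CPM in DKO and 1489 CPM in ApoE. The same cluster number thus held cells with different marker genes in each library, and the part of this in the Hey2 values was not tested.

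Over all cells, 9 members had at least 20 UMIs, of which 3 were called higher and 1 lower. Of 13257 genes, 9.53% were called higher and 13.1% lower. Dll4 was at 8.03 CPM in DKO and 0.676 CPM in ApoE (ratio 11.9, 5.82 to 27.3). Hey1 was at 8.76 CPM in DKO and 4.13 CPM in ApoE (ratio 2.12, 1.44 to 3.11), and Notch1 at 29.6 CPM in DKO and 16.6 CPM in ApoE (ratio 1.78, 1.47 to 2.17). Notch3 was at 10.7 CPM in DKO and 17.9 CPM in ApoE (ratio 0.595, 0.452 to 0.777). Without cluster 19, the ratio was 3.28 for Dll4 (1.34 to 8.49) and 1.45 for Notch1 (1.17 to 1.79), which is short of the rule. Hey1 had a ratio of 2.11 without that cluster.

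Shares of cells with a UMI depended on depth. In smooth muscle, Hes1 was seen in 9.57% of DKO cells and 33.8% of ApoE cells as deposited, at medians of 769.5 (DKO) and 4892 (ApoE) UMIs per cell. With each cell thinned to 1000 UMIs, which kept 1500 DKO and 1421 ApoE cells, the share was 8.70% in DKO (7.32 to 10.2%) and 10.4% in ApoE (8.89 to 12.1%). Notch3 was at 1.21% in DKO (0.719 to 1.90%) and 2.16% in ApoE (1.47 to 3.06%) after thinning. Rbpj was at 10.2% in DKO (8.70 to 11.8%) and 9.15% in ApoE (7.70 to 10.8%). Hey1 was at 0.951% in DKO (0.525 to 1.58%) and 0.367% in ApoE (0.123 to 0.840%). Thinned intervals overlapped for all 10 members. In macrophage cluster 13, set beside these as a background, the thinned ApoE share was 0.395% for Notch3, 4.98% for Hes1 and 0.976% for Hey1 (0.0564 to 4.37%), over 139 cells. The smooth muscle list summed to 12014 CPM in ApoE cluster 13, so that cluster was not free of mural transcripts. Both smooth muscle shares of Hey1 lie within the wide Hey1 interval of cluster 13. That interval rests on 1.36 expected cells with a Hey1 UMI, too few to set a background. The shares of Hey1 therefore cannot tell a difference from background.

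**Figure D5:**
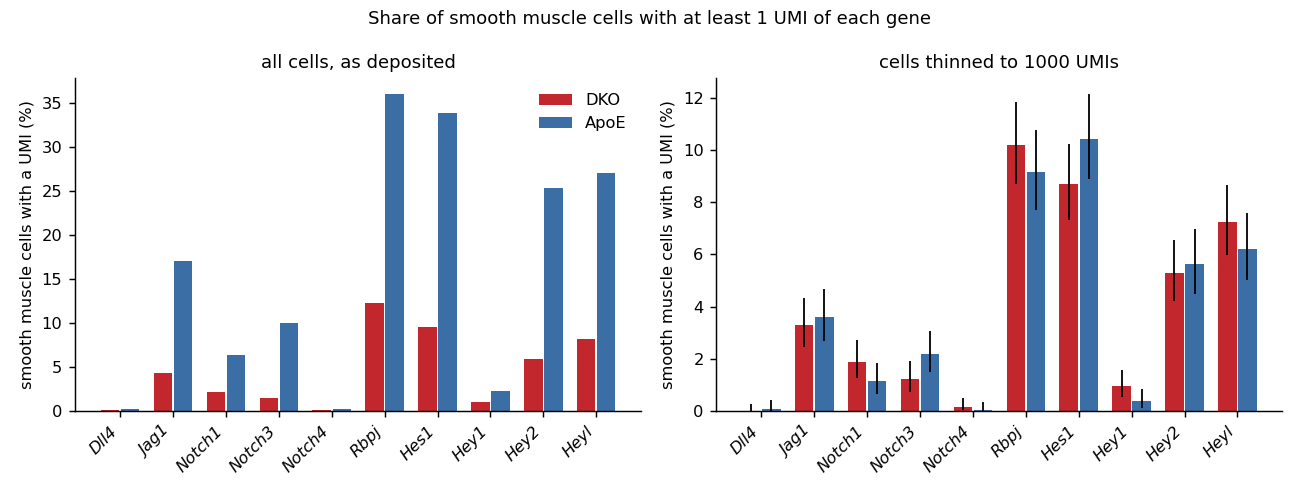
Share of smooth muscle cells with at least 1 UMI of each Notch gene, in all cells as deposited (left) and in cells thinned to 1000 UMIs (right, mean over all draws, with 95% Clopper-Pearson intervals); DKO bars stand left of ApoE bars. The Hes1 share is 9.57% in DKO and 33.8% in ApoE as deposited, and 8.70% in DKO and 10.4% in ApoE after thinning.

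The other genes of the pathway came from a list of 50, of which 46 were in the table (not Dll3, Dlk1, Hes5 and Epn3). In smooth muscle, 40 had at least 20 UMIs, 3 were called higher and 2 lower, beside the 9.87% higher and 7.67% lower of all genes, and the median log2 ratio was 0.01, against 0.03 over all genes. Of those with at least 100 UMIs, Hes6, a Hes relative known to oppose Hes1, had the highest ratio, at 17.7 CPM (97 UMIs) in DKO and 7.94 CPM (68 UMIs) in ApoE. Kat2a, a histone acetyltransferase, was at 13.9 CPM (76 UMIs) in DKO and 8.17 CPM (70 UMIs) in ApoE. Fbxw7, which directs cleaved Notch to degradation, was lower, at 22.8 CPM (125 UMIs) in DKO and 39.2 CPM (336 UMIs) in ApoE. Ctbp1, a corepressor, was lower as well, at 49.1 CPM (269 UMIs) in DKO and 76.2 CPM (653 UMIs) in ApoE. Dll1, the remaining gene called higher, had 14 UMIs in DKO and 7 in ApoE. Notch2, a receptor outside the 10, was at 89.9 CPM (493 UMIs) in DKO and 75.5 CPM (647 UMIs) in ApoE, above Notch1 and Notch3 in summed UMIs.

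In cluster 9, 20 genes of the list had at least 20 UMIs, 2 were called higher and 1 lower, beside 7.1% higher and 8.97% lower of all genes, so these counts are near those shares. Adam10, the protease of the first activating cut of Notch, had 71 UMIs (263 CPM) in DKO and 43 UMIs (158 CPM) in ApoE (ratio 1.66, 1.12 to 2.49). Snw1, a coactivator also used in splicing, had 28 UMIs (104 CPM) in DKO and 13 UMIs (47.8 CPM) in ApoE (ratio 2.17, 1.09 to 4.57). Kat2b, an acetyltransferase of the Notch activator complex, had 8 UMIs (29.7 CPM) in DKO and 23 UMIs (84.6 CPM) in ApoE (ratio 0.351, 0.136 to 0.812). The median log2 ratio was -0.08 over the list and -0.0012 over all genes.

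The epsins and Mib1 were read at their 3′ ends, which lie outside what a deletion need remove, so they do not check the knockout. In cluster 9, Epn1 had 2 UMIs in DKO and 10 in ApoE (ratio 0.202, 0.0215 to 0.946), and Epn2 had 26 UMIs (96.4 CPM) in DKO and 20 UMIs (73.6 CPM) in ApoE. Mib1 had 29 UMIs (108 CPM) in DKO and 31 UMIs (114 CPM) in ApoE. In smooth muscle, Epn1 was at 27.4 CPM in DKO and 29.3 CPM in ApoE, Epn2 at 112 CPM in DKO and 81.5 CPM in ApoE, and Mib1 at 105 CPM in DKO and 110 CPM in ApoE.

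Likeness of pattern was measured as the Pearson r of log2(CPM + 10) over 37 cluster sums of at least 50 cells, 19 from DKO and 18 from ApoE, which share library, depth and clustering. Dll4 was most like Glul (0.88), Ly6c1 (0.85) and Mmrn2 (0.85), and Jag1 most like Ppp1r9b (0.81), Eng (0.80) and Slc9a3r2 (0.80). Within ApoE alone, where cluster 19 was too small to enter, r was 0.42 for Dll4 with Glul, 0.15 for Jag1 with Eng and 0.04 for Jag1 with Slc9a3r2. Notch1 was most like Mmrn2 (0.86), Nck1 (0.84) and Gja4 (0.84), and Notch4 like Pecam1 (0.82), Mmrn2 (0.81) and Gja4 (0.80). The Notch4 values were 0.85, 0.85 and 0.86 in DKO alone and 0.73, 0.69 and 0.52 in ApoE alone. With log2(CPM + 1) they were 0.72, 0.62 and 0.62. Notch4 had 0 UMIs in 13 of the 19 DKO and 9 of the 18 ApoE sums, and Dll4 in 12 and 13. The values of both genes thus rest on few molecules. Heyl was most like Gucy1b1 (0.83), Wnt16 (0.82) and Gucy1a1 (0.82), and Hey2 like Pde3a (0.82), Ntrk3 (0.81) and Apopt1 (0.79). The Heyl values held within each library, at 0.78, 0.83 and 0.81 in DKO and 0.87, 0.83 and 0.86 in ApoE. Hes1 was most like the immediate early genes Egr1 (0.75), Dusp1 (0.74) and Hbegf (0.73). Within libraries these 3 values were 0.49, 0.54 and 0.56 in DKO and 0.87, 0.78 and 0.73 in ApoE. Rbpj was most like Hexa (0.74), Anxa5 (0.71) and Ctsz (0.69), Notch3 like Nos1ap (0.75), Adnp2 (0.70) and Uck2 (0.65), and Hey1 like Orc2 (0.68), Acaa1a (0.58) and Fam76a (0.58). In ApoE alone, r was lower for Notch3 with Uck2 (0.26), Hey1 with Acaa1a (0.17) and Fam76a (0.20), and Notch1 with Nck1 (0.49). Among the members, r was 0.84 for Jag1 with Dll4, at 0.87 in DKO alone and 0.37 in ApoE alone. It was 0.78 for Notch1 with Dll4 (0.78 in DKO and 0.77 in ApoE) and 0.63 for Hey2 with Heyl (0.70 in DKO and 0.75 in ApoE).

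The genes lie on 7 chromosomes of the mouse genome (GRCm38, GENCODE M21). Notch1 spans bases 26457903 to 26516663 of chromosome 2, Dll4 bases 119325784 to 119335962 and Jag1 bases 137081456 to 137116644 of the same chromosome. Notch3 spans bases 32120820 to 32166852 and Notch4 bases 34564268 to 34588503 of chromosome 17. Rbpj spans bases 53466152 to 53657362 of chromosome 5 and Hes1 bases 30064384 to 30067796 of chromosome 16. Hey1 spans bases 8663359 to 8667256 of chromosome 3, Hey2 bases 30832359 to 30842801 of chromosome 10 and Heyl bases 123233556 to 123249875 of chromosome 4. All 10 are annotated as protein-coding.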

How the data were processed

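Single cells of digested aortas were profiled with 10x 3′ v2 tags, per the labels' protocols, in 1 DKO and 1 ApoE library. The authors deposited counts of UMIs for each gene in each cell, which sum to the cell totals of the deposited metadata. The submitters' processing notes name Cell Ranger, Seurat and mm10, with no versions in the sources used here. The deposited mitochondrial ratio is a fraction per cell computed by the authors. The deposited class names and cluster numbers come from the authors' own clustering. Of 10345 entries, 2428 were second copies of ApoE barcodes with equal counts, class and cluster, and each barcode was counted once.

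UMIs were summed by population and library and scaled to 1000000 UMIs (CPM), in Python 3.11.15 with scipy 1.17.1 and pandas 2.3.3. Exact 95% intervals are Poisson for levels, conditional binomial for ratios and Clopper-Pearson for shares. Cells are not replicates, and no p-value was computed. Smooth muscle is the SMC class without cluster 15, and endothelium is deposited cluster 9. Doublets were not called and no cell was removed. The calling rule was checked on simulated counts. The members and lists were chosen with earlier results of these data known. Named genes are the 10 members, up to 6 called genes per direction of the pathway list in smooth muscle (at least 100 UMIs) and cluster 9 (at least 20 UMIs), Epn1, Epn2 and Mib1, and the 3 genes most like each member among those with at least 300 UMIs. Dll1, Notch2, the genes of clusters 8 and 15, and the marker genes were named beside these after their values were seen. The comparison of cluster directions with genes of similar UMIs, and the mean over draws in place of a single random draw, were also chosen after values were seen. Alternatives were TMM scaling (edgeR 4.0.16), median-of-ratios scaling, cell filters, thinning to 1000 UMIs (the mean over all possible draws) and other population limits.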

Additional observations from a re-analysis of the deposited data

How the results depend on the processing

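No paired analysis was possible because each genotype had 1 library, and for the same reason no replicate could be left out. In smooth muscle, the number of members called higher, 2 in the main setting, was 1 with TMM scaling, 1 with median-of-ratios scaling and 1 in the whole SMC class (Hey1 each time), 1 in cells with 1000 to 3000 UMIs (Notch1), and 0 with cells thinned to 1000 UMIs. The number called lower, 1, was 0 after thinning, which leaves fewer UMIs, and 2 in cells with 1000 to 3000 UMIs (Notch3 and Hes1). In endothelium, the number called higher, 1, was 0 after thinning and 3 in the whole EC class, which adds cluster 19 (Notch1, Jag1 and Dll4). Over all cells, the number called lower, 1, was 0 after thinning, and in cells with 1000 to 3000 UMIs it was 1 gene, Hes1 in place of Notch3. For the pathway list in cluster 9, the number called higher, 2, was 1 at a minimum of 100 UMIs, and the number called lower, 1, was 0 at 100 UMIs and 2 at 1 UMI (Kat2b and Epn1). Counts kept within 1.5 times of the main count in 39 other cases, and no called ratio changed direction in any setting. The log2 ratio of Hes1 in smooth muscle was -0.51 in the main setting, -0.69 in cells with 1000 to 3000 UMIs, -0.60 as a mean over cells and -0.38 after thinning. That of Notch3 was -0.88 in the main setting, -1.07 in cells with 1000 to 3000 UMIs and -0.88 after thinning. The range of 1000 to 3000 UMIs, the EC-named cells of cluster 9 and the sets without cluster 19 were chosen after seeing the data. So was giving thinning as the mean over all draws: a single random draw, run first, had put Hes1 in smooth muscle at nearly equal levels and had called Rbpj higher there, neither of which held in the mean. Notch4 had 10 UMIs or fewer per library in every population, and so had Dll4 in every class and cluster other than cluster 19 and the EC class that includes it.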

Other observations

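Hey1 was seen in cluster 20 of the DKO library, a cluster outside the comparisons above, with 5 UMIs in 3 of 27 cells (166 CPM) and 0 UMIs in the 26 ApoE cells. The endothelial list there summed to 2454 CPM in DKO and 343 CPM in ApoE, the adipocyte list to 9218 CPM in DKO and 68.6 CPM in ApoE, and the T cell list to 0 CPM in DKO and 2829 CPM in ApoE. The same cluster number therefore held cells with different marker genes in the 2 libraries. Cluster 18, with 27 DKO and 35 ApoE cells, had the highest Hes1 level of all clusters in both libraries, at 242 CPM (6 UMIs) in DKO and 308 CPM (17 UMIs) in ApoE. Both clusters are below 50 cells in each library and entered no order of levels.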
